A study of Mus musculus with 13 samples.

Results

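Regenerating mouse liver at 72 h after partial hepatectomy was compared with liver at 0 h within zones of the lobule, cell by cell in tissue sections. The comparison used 4 of the 13 sections of the study, 2 labelled 0h and 2 labelled 72h, and 36404 of the 122974 cells kept in the whole study. A cell was kept if at least 100 transcripts had been counted in it. The kept cells of each section were ranked by the share of their counts from Cyp2e1, a gene of hepatocytes around the central vein, and by the share from Pck1, a gene of hepatocytes around the portal vein. The difference of the 2 ranks was cut into 5 zones of equal cell number per section, so that zone 1 held the most portal and zone 5 the most central cells. The zones held 7282, 7281, 7281, 7281 and 7279 cells.

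All mice were male C57BL/6 on regular chow, labelled as 2 months old. In both groups the labels describe the same operation, removal of 2/3 of the liver, and give the time as the only difference, with 0h as the starting point. The labels name no sham-operated group, and do not say whether the sections of a group came from separate animals. The p-values therefore measure only the spread between sections of the same time, pooled over all times of the study, which may be technical. Transcripts of a panel of 100 genes had been counted in frozen sections by Molecular Cartography of Resolve Biosciences, an imaging assay in which single RNA molecules are detected in place by rounds of labelled probes.

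The liver lobule is organised between portal tracts, where blood enters, and a central vein, where it leaves. Hepatocytes near the portal side carry out gluconeogenesis, urea synthesis and fatty acid oxidation, and those near the central vein carry out glutamine synthesis and most detoxification by cytochrome P450 enzymes and glutathione transferases. Wnt signals from endothelial cells of the central vein hold the central programme in place, and after partial hepatectomy hepatocytes of the remaining lobes enter the cell cycle while they go on with these tasks.

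The 4 sections gave 10298 and 10725 kept cells at 0h and 4657 and 10724 at 72h, with 3769150, 3945457, 2448825 and 5033471 counts. The median kept cell held 334 and 339 counts at 0h and 500 and 456 counts at 72h. At the limit of 100 counts, 118, 140, 17 and 60 cells with 90 to 99 counts were left out and 121, 170, 23 and 68 cells with 100 to 109 counts were kept. Section 1 at 72h covered a smaller, irregular area. The sections within a group differed by far more than counting noise, and the root mean square log2 difference between sections over genes was 1.03 at 0h and 0.65 at 72h. At most 2 cell names, which are built from positions, were shared between any 2 sections.

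The zones formed continuous territories in the tissue, a property the ranking did not use. A cell's zone score and the mean score of its 6 nearest neighbours correlated with r of 0.963 and 0.922 at 0h and 0.961 and 0.948 at 72h, over the kept cells of each section. Of the neighbours, 97.1% and 90.6% at 0h and 97.3% and 95.5% at 72h lay in the same or the next zone. Cyp2e1 and Pck1 chose the zones, so their levels are given as a description only. Cyp2e1 took 67.3% and 62.7% of the counts of zone 5 at 0h and 62.4% and 56.1% at 72h. In zone 3 it took 19.2% and 13.5% at 0h and 10.05% and 5.47% at 72h, so the middle zones were not at an identical Cyp2e1 share at both times. Pck1 took 24.4% and 35.2% of the counts of zone 1 at 0h and 29.0% and 30.5% at 72h. No Cyp2e1 count was seen in 35.2% and 42.1% of kept cells at 0h and 36.2% and 35.8% at 72h, and among those cells the order rests on Pck1 alone.

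**Figure D1:**
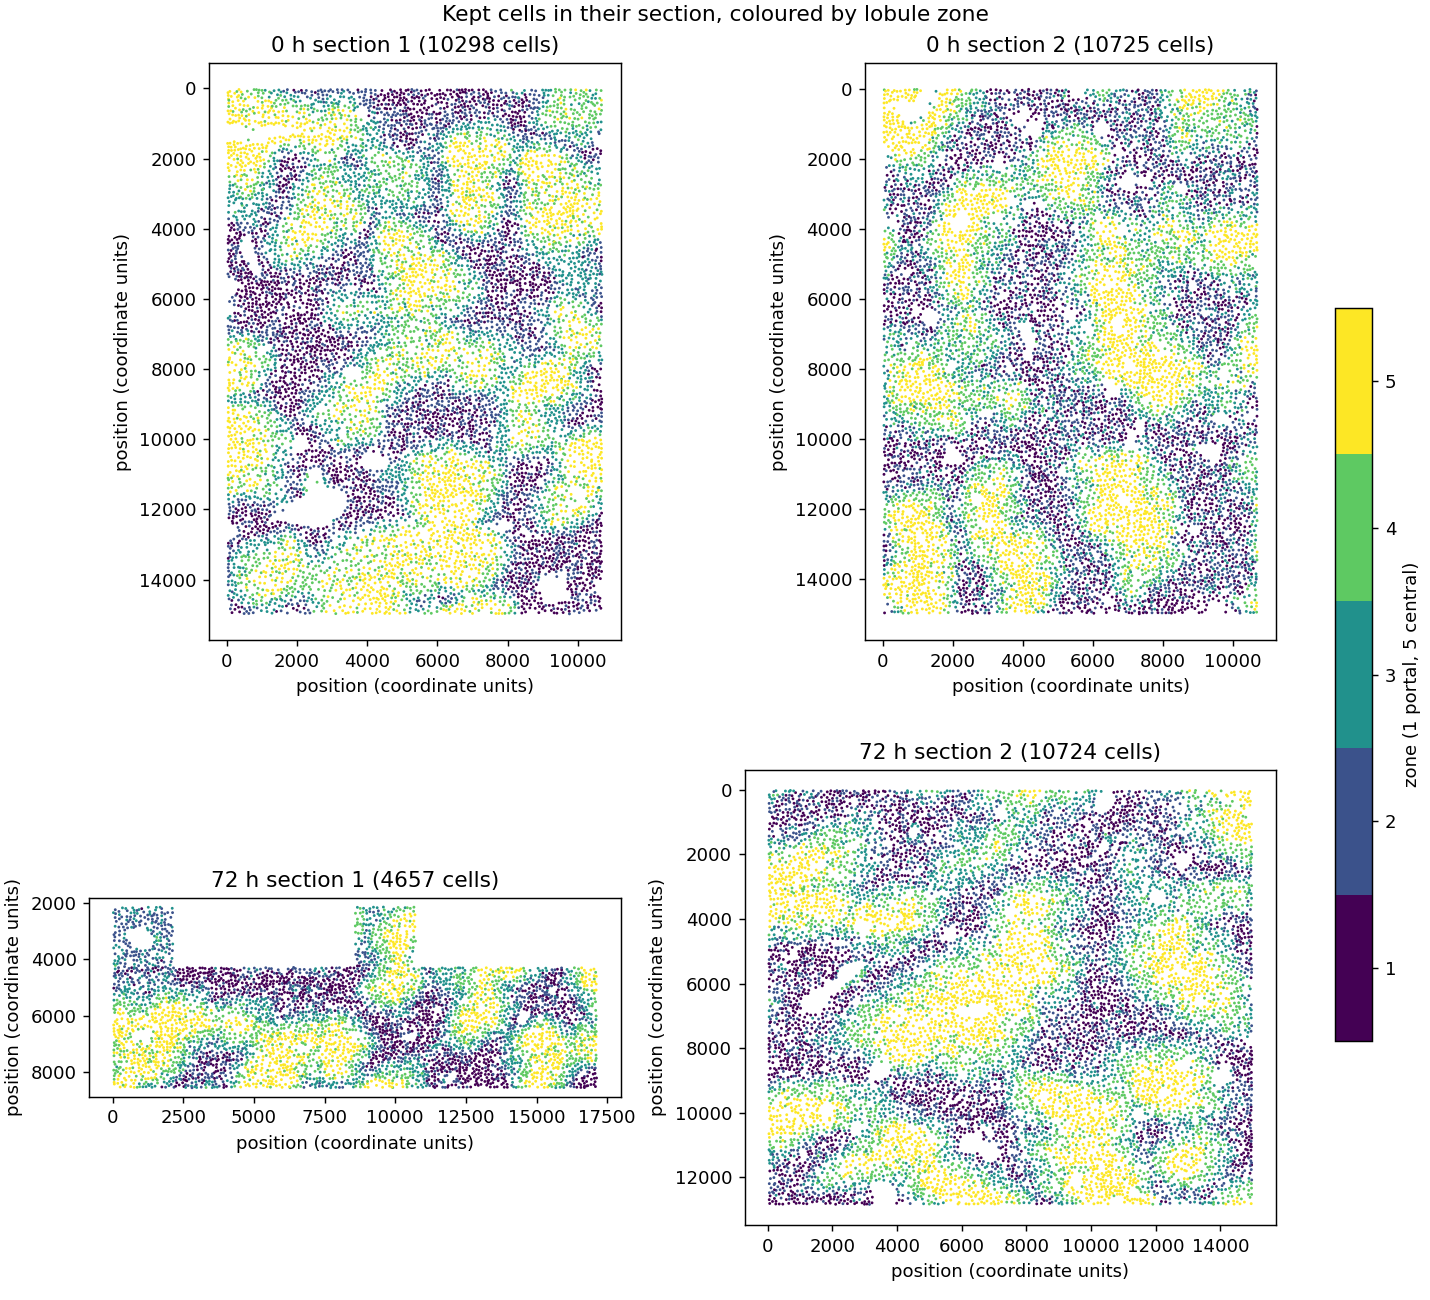
Positions of the kept cells in the 4 sections, in the deposited coordinate units, coloured by zone from portal (purple) to central (yellow). The zones form bands and patches in each section, and section 1 at 72h covers the smaller area with 4657 cells.

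In portal cells, several genes known from central hepatocytes were higher at 72h than at 0h. In zone 1, 11 of 91 genes tested were higher at 72h (12.1%) and 5 were lower (5.49%), by edgeR's quasi-likelihood test with Benjamini-Hochberg adjusted p under 0.05, and with the slide as a block 8 were lower. Of 14 central genes in the panel, Cyp2e1 included, 6 were higher and 1 was lower in zone 1, with a median log2 change of 0.96 against -0.05 over all genes tested there. Those that rose were the glutathione transferases Gstm1, Gstm2 and Gstm3, the secreted protein gene Lect2, Rgn, which encodes the calcium-binding protein regucalcin, and the tight junction gene Cldn2. In zone 5 only the transferases Gstm2 and Gstm3 rose among the 14. The median of the 14 there was 0.05 against 0.21 over all genes tested. Over all kept cells 3 of the 14 were called higher and 4 lower, with a median of -0.17 against 0.12. Those lower were Cyp2e1, Cyp27a1, Cyp1a2 and Glul, beside 9.09% of all genes called higher and 7.07% lower. This list was drawn up with earlier results of these sections known, so its direction is a description. Not all 14 were highest in the central zone of both 0h sections. From zone 1 to zone 5, Gstm1 went from 54.0 to 31.6 CPM in 0h section 1 and from 11.8 to 177 in section 2. Cyp27a1 in 0h section 1 was at 8505 in zone 1, 16176 in zone 3 and 10768 in zone 5.

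3 start regions are printed because the called differences between the portal and the central change were largest for Gstm3, Lect2 and Hsd17b13. Each runs from 250 bases before to 50 bases after the gene's start, 5′ to 3′ on the gene's strand, from RefSeq on GRCm38.p6. The search covered CTTTGAT, the core of the site bound by TCF and LEF factors of the Wnt pathway, and TGACNNNGC, the core of the antioxidant response element, on both strands. Neither motif contains the other. Capitals mark a match, read as ATCAAAG where CTTTGAT lies on the opposite strand. The regions are chr3:107969125-107969424 for Gstm3, chr13:56548489-56548788 for Lect2 and chr5:103977339-103977638 for Hsd17b13, all on the minus strand.
Gstm3: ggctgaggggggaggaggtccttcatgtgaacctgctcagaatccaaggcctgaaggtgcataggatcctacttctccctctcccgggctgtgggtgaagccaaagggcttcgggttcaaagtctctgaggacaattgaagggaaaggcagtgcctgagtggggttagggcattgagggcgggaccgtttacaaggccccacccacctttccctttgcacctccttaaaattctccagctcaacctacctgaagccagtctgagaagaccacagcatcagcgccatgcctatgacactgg
Lect2: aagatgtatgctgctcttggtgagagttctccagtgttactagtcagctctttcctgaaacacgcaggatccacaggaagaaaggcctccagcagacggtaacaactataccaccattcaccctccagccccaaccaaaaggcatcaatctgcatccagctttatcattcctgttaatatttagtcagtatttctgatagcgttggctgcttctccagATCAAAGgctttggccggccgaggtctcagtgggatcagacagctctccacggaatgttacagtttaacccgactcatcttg
Hsd17b13: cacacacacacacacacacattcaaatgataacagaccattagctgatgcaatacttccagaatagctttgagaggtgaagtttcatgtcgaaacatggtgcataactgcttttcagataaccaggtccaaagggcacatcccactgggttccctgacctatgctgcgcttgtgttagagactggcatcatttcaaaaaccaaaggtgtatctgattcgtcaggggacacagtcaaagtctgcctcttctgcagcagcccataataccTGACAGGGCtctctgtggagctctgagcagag
The Gstm3 window held neither motif. The Lect2 window held 1 match to CTTTGAT, starting at -32 from the gene's start, and 3.73% of 32851 mouse start regions of this length held that motif. The Hsd17b13 window held 1 match to TGACNNNGC, starting 19 bases after the start, and 12.4% of the start regions held that one. These matches describe letters in the windows and were not tested for binding.

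Gstm3, a mu-class glutathione transferase that conjugates glutathione to reactive compounds, was the gene with the largest rise in zone 1. Its level there, in counts per 1000000 after TMM scaling (normalised CPM), was 263 and 152 at 0h and 13539 and 11823 at 72h. Both 72h sections thus lay far above both 0h sections, with a log2 change of 5.92 ± 0.36 (SE, n = 2 sections per time; edgeR adjusted p = 4.29e-10), a 60.7-fold difference. In zone 2 it was 6.16 ± 0.39, and from there the rise became smaller toward the central vein: 4.82 ± 0.50 in zone 3, 3.17 ± 0.43 in zone 4 and 1.77 ± 0.26 in zone 5, each past the threshold. In zone 5 the levels were 4546 and 7359 at 0h and 20412 and 20281 at 72h, so the central cells at 0h started high and still rose (adjusted p = 0.00415).

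The distribution of Gstm3 over the lobule flattened. At 0h, 54.5% and 82.3% of all Gstm3 counts of a section lay in zone 5, and at 72h 21.1% and 25.7% did. Zone 1 held 2.78% and 1.16% of them at 0h and 15.8% and 15.9% at 72h. As a share of counts, Gstm3 was 11.8 and 56.7 times higher in zone 5 than in zone 1 at 0h, and 1.25 and 1.46 times higher at 72h. The 0h sections differed in how steep the gradient was, but neither came near the nearly level profile of the 72h sections.

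The rise in portal cells was spread over many cells. After each cell had been thinned to 100 counts, at least 1 Gstm3 count was present in 2.38% (95% Wilson interval 1.80 to 3.13) and 1.03% (0.678 to 1.55) of zone 1 cells at 0h. At 72h the share was 60.7% (57.6 to 63.8) and 57.2% (55.1 to 59.2). Before thinning the shares were 7.14% and 2.89% at 0h and 90.9% and 86.8% at 72h, with median depths of 290, 344, 560 and 473 counts per cell in zone 1. The intervals cover counting error only.

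**Figure D2:**
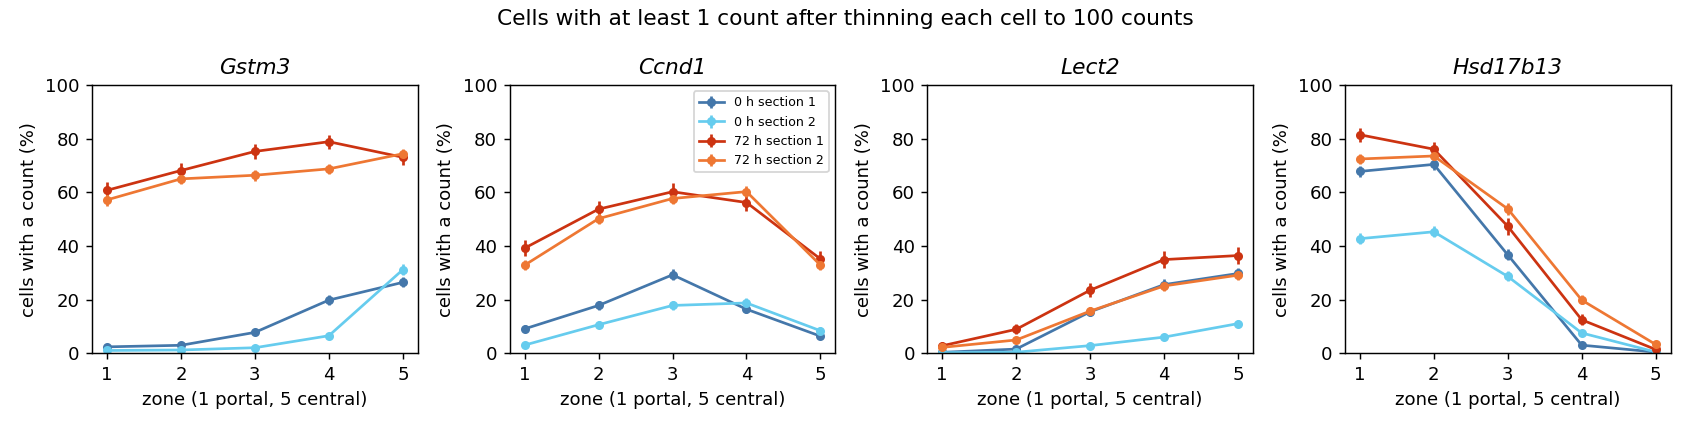
Percent of cells with at least 1 count of Gstm3, Ccnd1, Lect2 and Hsd17b13 after thinning each cell to 100 counts, by zone and section, with 95% Wilson intervals. In zone 1, Gstm3 was seen in 2.38% and 1.03% of cells at 0h and in 60.7% and 57.2% at 72h.

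The other mu-class transferases also rose in zone 1. Gstm2 was at 266 and 174 normalised CPM in zone 1 at 0h and at 1405 and 942 at 72h, a log2 change of 2.41 ± 0.36 (adjusted p = 0.000126). It was called in all 5 zones, down to 1.07 ± 0.22 in zone 5 (3397 and 4569 at 0h, 8369 and 8324 at 72h; adjusted p = 0.0155), where the call ended without either 72h section (adjusted p = 0.0681 without section 1 and 0.0588 without section 2). Unlike Gstm3, Gstm2 kept a central slope at 72h: its share went from 1489 and 1014 CPM in zone 1 to 7381 and 7647 in zone 5. Gstm1 was called in zones 1 to 4, with 53.8 and 22.0 normalised CPM at 0h and 279 and 337 at 72h in zone 1 (2.98 ± 0.56, adjusted p = 0.000846). In zone 5 its change was 1.21 ± 0.76 (edgeR adjusted p = 0.34), from unlike 0h sections at 31.6 and 177 CPM. Within slides 1 and 2 the Gstm1 change was 2.37 and 3.94 in zone 1 and 2.44 and 0.84 in zone 5. Its rise was thus larger in the portal zone on slide 2 only.

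**Figure D3:**
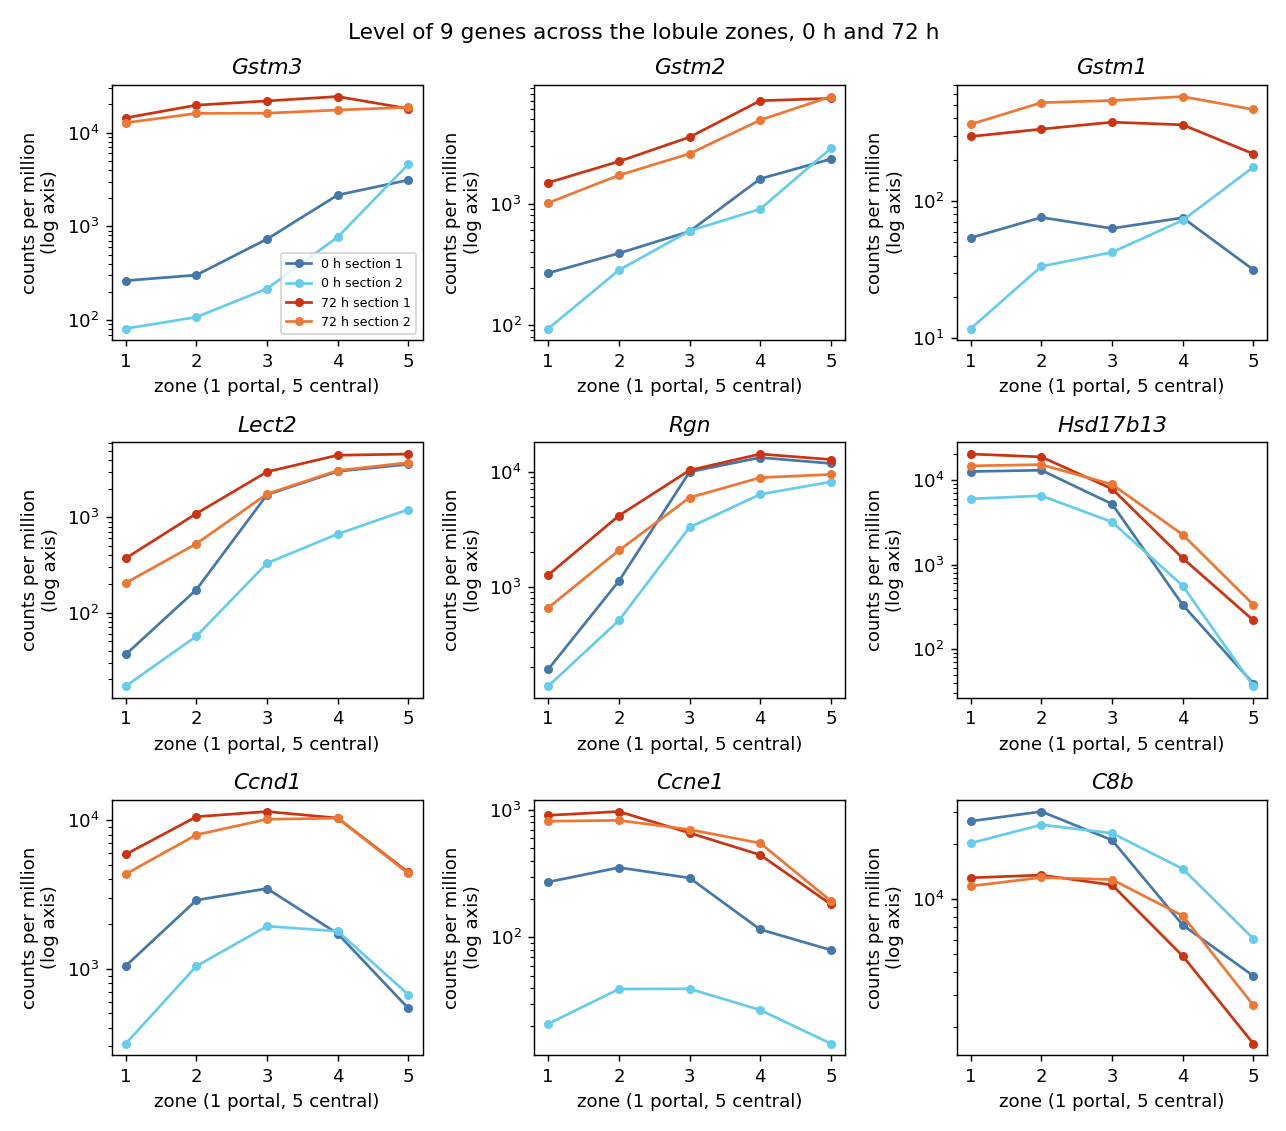
CPM (counts per 1000000, log axis) of 9 genes across the 5 zones from portal to central, 1 line per section. The 72h lines of Gstm3 are nearly level between 12728 and 24251 CPM, while the 0h lines climb from 264 and 81.1 in zone 1 to 3121 and 4598 in zone 5.

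Lect2, which encodes a hepatocyte-secreted chemotactic protein and is known as a Wnt target in liver, rose in the portal zones from a very low start. Zone 1 held 23 and 13 Lect2 counts at 0h and 195 and 209 at 72h, or 36.4 and 31.8 normalised CPM against 351 and 190. The sections did not overlap, and the log2 change was 2.97 ± 0.52 (adjusted p = 0.000558). In zone 2 it was 2.53 ± 0.55 (adjusted p = 0.00626), and that call ended without 0h section 2 or without 72h section 1 (adjusted p = 0.0545 and 0.0851). In zone 5 it was 0.37 ± 0.43, not past the threshold. Lect2 remained a central gene at 72h, with a share 12.4 and 18.2 times higher in zone 5 than in zone 1, against 98.2 and 70.8 times at 0h. Cells of zone 1 with a Lect2 count at 100 thinned counts made up 0.340% and 0.233% at 0h and 2.79% and 2.19% at 72h.

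Rgn also rose in the portal zones. Its zone 1 counts were 120 and 104 at 0h and 661 and 666 at 72h, or 190 and 254 normalised CPM against 1189 and 607. Both 72h sections were above both 0h sections (2.02 ± 0.39, adjusted p = 0.000846). In zone 2 the rise was 1.62 ± 0.38 (adjusted p = 0.00808) and became 1.06 without 72h section 1 (adjusted p = 0.161). The Rgn change was -0.29 ± 0.23 in zone 5. Over all kept cells neither Rgn nor Lect2 was called.

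Cldn2, a pore-forming claudin of tight junctions, was at 88.6 and 242 normalised CPM in zone 1 at 0h and at 754 and 526 at 72h (1.97 ± 0.45, adjusted p = 0.00412). It also rose in zone 2 (2.17, adjusted p = 0.00626, and 0.0714 without 72h section 1), and its change in zone 5 was 0.26 ± 0.39. Cyp27a1 was the central gene called lower in zone 1. There the cytochrome P450 gene Cyp1a2 changed by 0.31 ± 0.40 and the ornithine aminotransferase gene Oat by 1.05 ± 0.52 (adjusted p = 0.18), neither past the threshold.

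The portal values were also taken from cells lying amid their own zone, cells whose 6 nearest neighbours all lay in the same or the next zone, a choice made after the data had been seen. In those cells Gstm3 stood at 262 and 61.1 CPM at 0h and 14053 and 12132 at 72h. Lect2 stood at 32.8 and 6.79 at 0h and 262 and 168 at 72h, and Rgn at 133 and 47.5 at 0h and 814 and 376 at 72h. All 3 genes were higher in both 72h sections than in both 0h sections in these cells too.

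Hsd17b13 went the other way along the lobule. It encodes a lipid droplet enzyme of hepatocytes and is a portal gene in these sections: its share at 0h went from 12525 and 5954 CPM in zone 1 to 39.3 and 36.6 in zone 5. In zone 5 it had 41 and 35 counts at 0h and 122 and 378 at 72h, or 57.2 and 58.6 normalised CPM against 248 and 364. Its log2 change there was 2.41 ± 0.39 (adjusted p = 0.00551), with no overlap between times, and the call ended with 3 zones in place of 5 (adjusted p = 0.0665). The change was 0.47 ± 0.25 in zone 1 (adjusted p = 0.23). Zone 5 cells with a count at 100 thinned counts were 0.437% and 0.466% at 0h and 1.40% and 3.26% at 72h. Cells amid zone 5 held 20.5 and 18.3 CPM at 0h and 200 and 305 at 72h. Of 10 panel genes listed as portal, Pck1 included, Hsd17b13 was the only one edgeR called higher in zone 5, and it called none lower there. DESeq2 called 1 of the 10 higher and 2 lower in zone 5, beside 5 and 9 of all 92 genes. The median of the 10 by edgeR was -0.56 against 0.21 over all genes tested. Not all 10 were portal in these sections: at 0h Prodh went from 8559 and 2278 CPM in zone 1 to 13373 and 8167 in zone 5. Hpd went from 101755 and 37663 to 72696 and 67024. Gls2, the portal glutaminase gene, changed by -0.53 ± 0.65 in zone 5 and the arginase gene Arg1 by -0.23 ± 0.32.

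In zone 5, 4 of 92 genes tested were higher at 72h (4.35%) and 2 were lower (2.17%), or 5 lower with the slide as a block. The 4 were Hsd17b13, Ccnd1, Gstm3 and Gstm2. In zone 2, 12 of 94 were higher (12.8%) and 4 lower (4.26%), in zone 3, 6 of 94 were higher (6.38%) and 2 lower (2.13%), and in zone 4, 4 of 95 were higher (4.21%) and 2 lower (2.11%). With the slide as a block, 5 were lower in zone 3, and 9 were higher and 6 lower in zone 4. With total-count scaling the splits in zones 2 to 5 were 12 against 1, 17 against 1, 29 against 0 and 13 against 1. Over all zones, 14 genes were called higher in at least 1 of them, and 3 were called in all 5: Ccnd1, Gstm2 and Gstm3. A call in 1 zone and not in another does not show that the zones differ, which was tested separately.

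The difference between the central and the portal change was tested directly, with each section as its own control. Of 90 genes tested, 3 rose more in zone 1 than in zone 5 (3.33%) and 7 rose more, or fell less, in zone 5 (7.78%). The 3 were Gstm3, Rgn and Lect2. The central minus portal difference was -3.81 ± 0.49 for Gstm3 (edgeR adjusted p = 0.0029), -1.92 ± 0.27 for Rgn (adjusted p = 0.00311) and -2.15 ± 0.46 for Lect2 (adjusted p = 0.0206). Among genes on the other side, Hsd17b13 had a difference of 2.27 ± 0.30 (adjusted p = 0.0029). Cldn2 (-1.45 ± 0.63, adjusted p = 0.19), Gstm2 (-0.99 ± 0.36, adjusted p = 0.14) and Gstm1 (-1.04 ± 0.95, adjusted p = 0.48) did not pass, although each was called in zone 1.

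Section numbers 1 and 2 stood for slides 1 and 2 at both times, so the difference could be read within each slide from shares of counts. For Gstm3 it was -3.24 on slide 1 and -5.27 on slide 2, for Rgn -2.61 and -2.05, for Lect2 -2.99 and -1.96, and for Hsd17b13 1.79 and 1.90. All 4 genes kept their direction on both slides. The change itself within slides 1 and 2 was 5.69 and 6.29 for Gstm3, 3.27 and 2.58 for Lect2 and 2.65 and 1.26 for Rgn in zone 1, and 2.12 and 2.64 for Hsd17b13 in zone 5. The Lect2 call did not survive the loss of 0h section 1 (-1.41, adjusted p = 0.0711), of 72h section 1 (adjusted p = 0.136) or of 72h section 2 (adjusted p = 0.0853), and the difference was -3.72 without 0h section 2. The Rgn difference was -3.37 without 0h section 2. With the 0h and 72h sections fitted alone, the Rgn call ended (-2.79, adjusted p = 0.146), as did the Lect2 call (-3.01, adjusted p = 0.163). The Gstm3 difference passed without any 1 section and under all 20 alternatives, between -4.76 and -3.80.

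The 7 genes on the central side rested more on the scaling. The median gene's difference was 0.39 in this test, -0.02 with total-count scaling and -0.43 with scaling by cell number. The split of calls, 7 against 3 as fitted, then became 0 against 3 and 0 against 8. Toward zone 5, 6 and 1 genes had an unadjusted edgeR p under 0.05 under those scalings, and DESeq2 split the calls 3 against 9. Hsd17b13 was 1.86 with total-count scaling (adjusted p = 0.0674) and 1.45 with scaling by cell number (adjusted p = 0.0679). Its call also ended without 0h section 2 (1.34, adjusted p = 0.123) and without 48h section 1 (1.32) or 14d section 2 or 3 (1.54 and 1.53), which entered the fit for the spread. Cyp27a1, which encodes the sterol 27-hydroxylase of bile acid synthesis, fell in zone 1 and had a difference of 1.35 ± 0.16 (adjusted p = 0.0029), a call that ended in 15 of the 20 alternatives and without 0h section 2 (0.27, adjusted p = 0.566).

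**Figure D4:**
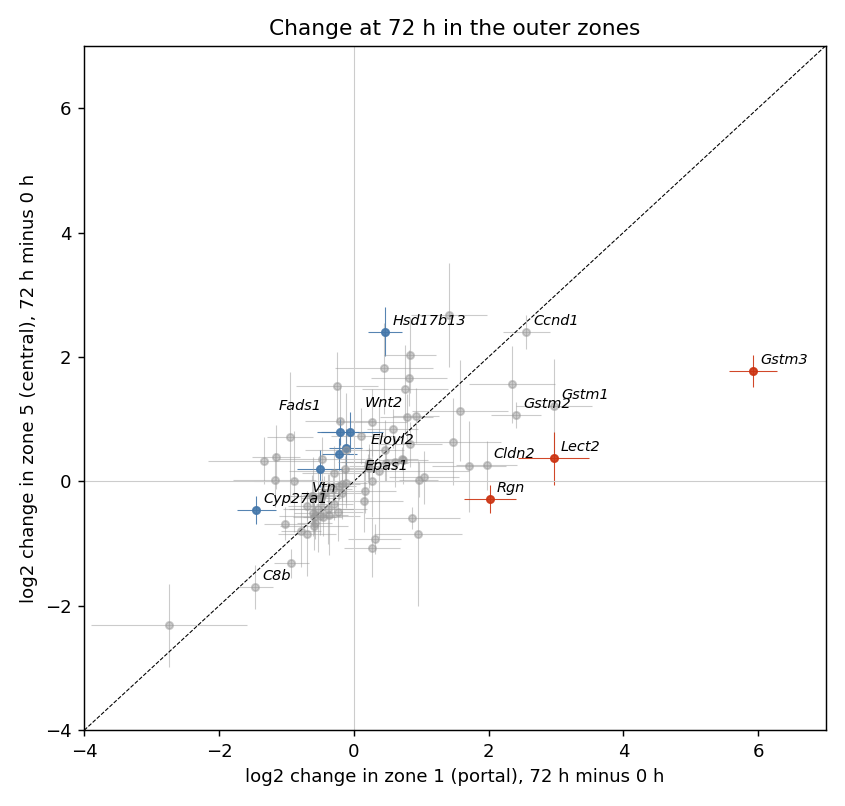
Log2 change from 0h to 72h in zone 1 (x axis) and zone 5 (y axis) for each gene, with bars of 1 SE; genes with 3 or fewer counts in a group are left out and the dashed line marks equal change. Gstm3, Lect2 and Rgn (red) lie below the line, and the 7 genes that rose more or fell less in zone 5 (blue) lie above it, Hsd17b13 the farthest out at 0.47 in zone 1 and 2.41 in zone 5.

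Among cyclin genes, Ccnd1 was higher at 72h from the portal to the central zone. It encodes cyclin D1, the driver of entry into the cell cycle from rest, and was called in each zone, although in zone 3 not without 72h section 2 (adjusted p = 0.0508). In zone 1 it was at 1039 and 584 normalised CPM at 0h and at 5567 and 4036 at 72h (2.56 ± 0.35, adjusted p = 5e-05). In zone 5 it was at 787 and 1071 at 0h and at 5053 and 4774 at 72h (2.40 ± 0.27, adjusted p = 0.000938). The difference between the central and the portal change was 0.15 ± 0.50 (adjusted p = 0.88). Ccnd1 was highest in the middle zones at both times: at 72h its share was 11463 and 10167 CPM in zone 3 against 5900 and 4345 in zone 1 and 4457 and 4385 in zone 5. Cells of zone 3 with a count at 100 thinned counts were 29.2% and 17.8% at 0h and 60.2% and 57.7% at 72h.

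Ccne1, which encodes cyclin E1 of the step into DNA synthesis, was called higher by edgeR in zones 1 and 2. EdgeR did not call it in zones 3 to 5. Within slides 1 and 2 it changed by 0.63 and 3.64 in zone 3, 1.38 and 3.47 in zone 4 and 0.83 and 3.16 in zone 5. DESeq2 called the 2 cyclin genes tested by zone higher in zones 3 and 4, and 1 of them in zone 5. Of these 2, 0 passed the central minus portal test by either method. In zone 1 Ccne1 was at 271 and 39.1 normalised CPM at 0h and at 855 and 756 at 72h (2.35 ± 0.64, edgeR adjusted p = 0.0214). The 0h sections were far apart: the change was 4.61 without 0h section 1 and 1.53 without 0h section 2. The call ended without any 1 of the 48h and 72h sections or 14d section 2 (adjusted p from 0.0506 to 0.128). Of the 4 cyclin genes, 3 were called over all kept cells, with a median of 2.01 against 0.12 over all genes, of which 9.09% were called higher. Ccna1, the cyclin A1 gene, had 0 counts in both 0h sections and 8 and 20 counts at 72h, only 3.27 and 3.97 CPM. With the 0h sections together set to a floor of 3 counts, it was at least 6.63-fold higher (edgeR adjusted p = 0.00843). The Ccna1 call ended without 0h section 2. The mitotic cyclin gene Ccnb1 was not called.

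**Figure D5:**
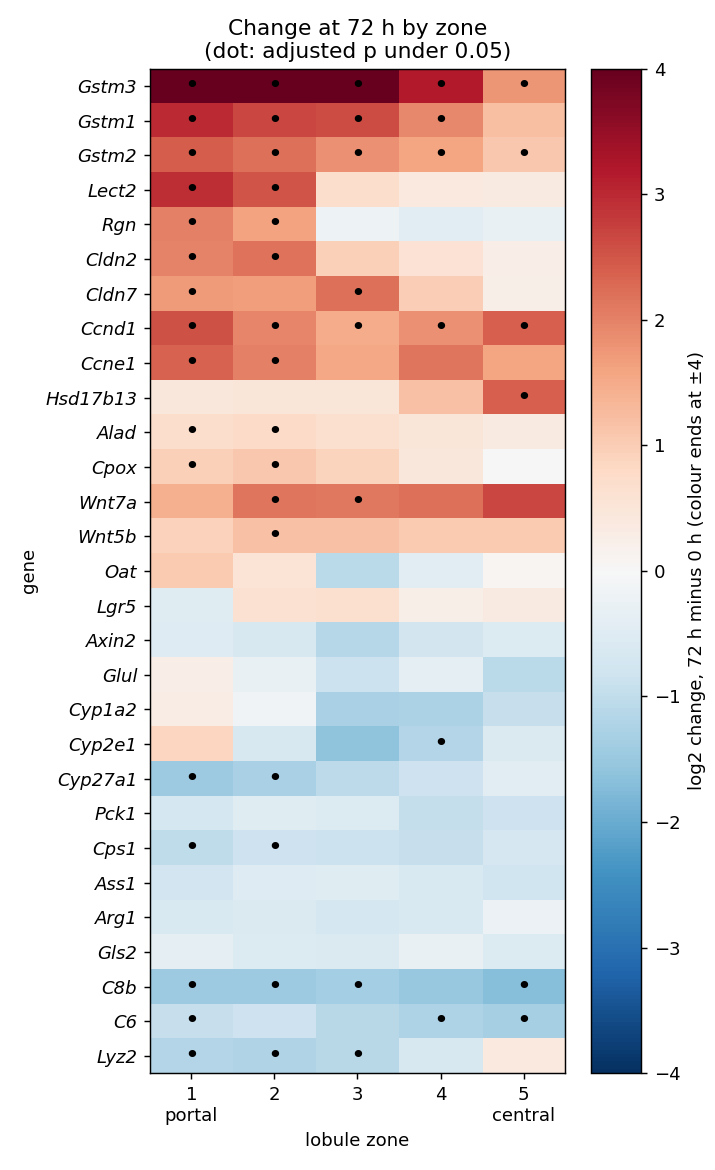
Log2 change from 0h to 72h for 29 genes in each zone, with dots where the edgeR adjusted p is under 0.05; the colour scale ends at -4 and 4. Ccnd1, Gstm2 and Gstm3 carry a dot in all 5 zones, Lect2, Rgn and Cldn2 in zones 1 and 2, and Hsd17b13 in zone 5.

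The 2 genes of heme synthesis were called higher in zones 1 and 2, and edgeR called no difference between their portal and central change. Cpox, coproporphyrinogen oxidase, was at 2486 and 2022 normalised CPM in zone 1 at 0h and at 4834 and 3953 at 72h (0.96 ± 0.28, adjusted p = 0.0246). Alad, which encodes aminolevulinate dehydratase, was at 8083 and 9268 at 0h and at 14712 and 13804 at 72h (0.72 ± 0.24, adjusted p = 0.044). Both were called in zones 1 and 2 with no overlap between times. Their zone 1 calls ended without 72h section 1 or any 1 of the 14d sections (adjusted p from 0.0535 to 0.11 for Cpox and from 0.0593 to 0.0858 for Alad), and that of Alad also without 72h section 2. Of the 5 genes listed for heme and mitochondria, these 2 were called in zone 1, with a median of 0.21 against -0.05 over all genes tested there, of which 12.1% were called higher. Of the 5, edgeR called 0 either way in the central minus portal test. DESeq2 called 1 of the 5 toward the portal side, beside 9 of all 90 genes. From shares of counts within slides 1 and 2, this difference was -0.74 and -1.26 for Cpox and -0.11 and -0.75 for Alad. Within slides 1 and 2, Cpox changed by 0.60 and 1.30 in zone 3 and by -0.06 and 0.16 in zone 5. Alad changed by 0.47 and 0.82 in zone 3 and by 0.48 and 0.27 in zone 5.

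6 genes were called lower in at least 1 zone, among them Cyp2e1, which had chosen the zones and is not read further. C8b, a terminal complement gene, was called lower in zones 1, 2, 3 and 5. In zone 4 it was not called, although it changed by -1.13 and -1.73 within slides 1 and 2. In zone 1 it went from 26605 and 37834 normalised CPM at 0h to 12350 and 10953 at 72h (-1.47 ± 0.26, adjusted p = 0.000558). In zone 5 it went from 5527 and 9717 to 1833 and 2857 (-1.70 ± 0.35, adjusted p = 0.0158, and 0.0979 without 72h section 1). C6, another terminal complement gene, fell in zones 1, 4 and 5, most in zone 5 from 20348 and 15641 to 7560 and 6862 (-1.32 ± 0.24, adjusted p = 0.0085, and 0.0588 without 72h section 2). Of 10 genes for secreted plasma proteins, C6 and C8b were called lower over all kept cells and none higher, with a median of -0.31 against 0.12 over all 99 genes, of which 9.09% were higher and 7.07% lower.

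Cyp27a1 was called lower in zones 1 and 2. Its zone 1 level was 8469 and 7109 at 0h and 3591 and 2138 at 72h (-1.44 ± 0.28, adjusted p = 0.000975), and without 72h section 2 the change was -1.05 (adjusted p = 0.0753). Cps1, the gene of the first step of the urea cycle, fell in zone 1 (-1.02 ± 0.30, adjusted p = 0.0246), a call that ended without any 1 of the 72h or 14d sections (adjusted p from 0.0535 to 0.19) and was -0.63 without 0h section 2. The other urea cycle genes in zone 1 were Ass1 at -0.78 ± 0.29 (adjusted p = 0.078) and Arg1 at -0.62 ± 0.24 (adjusted p = 0.089), neither past the threshold. The gluconeogenesis genes were G6pc, Fbp1 and Pck1, which had chosen the zones and is a description only within them. None of the 3 was called by edgeR over all kept cells or in any zone. At an unadjusted edgeR p under 0.05, 0 were lower over all kept cells and in zone 1 and 1 was lower in each of zones 2 to 5, and DESeq2 called 1 lower over all kept cells and in each zone. The 0h sections were far apart in G6pc, the last step of glucose release, at 10866 and 67817 CPM.

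The falls depended on the scaling, while the calls of Gstm1, Gstm2 and Gstm3 in the zones held under each scaling. Per 100 kept cells, C8b went from 563 and 625 counts at 0h to 460 and 444 at 72h, whereas Cps1 went from 2730 and 2881 up to 3108 and 3167. Gstm3 in zone 1 went from 8.06 and 2.89 counts per 100 cells to 807 and 605. With total-count scaling the split in zone 1 was 9 higher against 0 lower, and with scaling by cell number 34 against 0, where the fitted Cps1 change turned to 0.22 and that of C6 to 0.19. The median gene in zone 1 moved from -0.05 to 0.49 and 1.16 under those 2 scalings. Over all kept cells the split was 9 against 7 as fitted, 28 against 1 with total-count scaling and 40 against 0 with scaling by cell number. The fall of Cps1 was thus one relative to the other genes and not in counts per kept cell, while C8b was lower on both measures. The median kept cell held more counts at 72h. Whether a lower count per kept cell came from fewer cells of a type among those kept or from less RNA of the gene in each cannot be told apart here.

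Wnt ligand genes were called at about the overall share. Of 18 Wnt ligand genes tested over all kept cells, Wnt7a and Wnt16 (the latter not without 0h section 2 or 72h section 1, adjusted p = 0.0925 and 0.12) were called higher and none lower, with a median of 0.49 against 0.12, beside 9.09% of all genes called higher. Wnt7a was at 7.84 and 8.37 normalised CPM at 0h and at 28.6 and 38.1 at 72h (2.05 ± 0.49, adjusted p = 0.0059), a low level in every section, and was also called in zones 2 and 3. Wnt5b was called in zone 2, where it was at 1099 and 729 at 0h and at 2070 and 2017 at 72h (1.16 ± 0.37, adjusted p = 0.0499). That call ended without 0h section 2 or any 1 of the 72h and 14d sections (adjusted p from 0.0742 to 0.17). None of the receptor genes tested, 12 over all kept cells and 10 to 12 in a zone, was called by edgeR. Over all kept cells 1 of them had an unadjusted edgeR p under 0.05, and DESeq2 called 1 higher. Of 6 Wnt targets tested in zone 5, edgeR called 1 higher, Ccnd1, and 0 lower, beside 4.35% and 2.17% of all genes. DESeq2 called 1 of the 6 higher and 1 lower there, beside 5 and 9 of all 92 genes. Among the others, the feedback inhibitor gene Axin2 changed by -0.56 ± 0.31 and the R-spondin receptor gene Lgr5 by 0.35 ± 0.36. Glul, the glutamine synthetase gene, changed by -1.07 ± 0.47 (edgeR adjusted p = 0.19), and none of these passed the edgeR threshold in zone 5. Within slides 1 and 2 the Glul change there was -0.54 and -1.48, and over all kept cells Glul was called lower.

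Markers of cells other than hepatocytes were few in the panel and were present in the kept cells at both times. The summed share of 4 endothelial genes was 0.267% and 0.193% of counts at 0h and 0.500% and 0.394% at 72h, and in zone 5 0.186% and 0.293% against 0.576% and 0.526%. None of the 4 (Pecam1, Wnt2, Wnt9b and Rspo3) was called over all kept cells or within a zone, and 2 had an unadjusted edgeR p under 0.05 in zone 5, while DESeq2 called none there. Wnt2 was called in the central minus portal test (1.17 ± 0.29, adjusted p = 0.0382), a gene named after its value was seen, and its call ended with the slide as a block (adjusted p = 0.0617). The stellate cell gene Lrat took 0.171% and 0.123% of counts at 0h and 0.451% and 0.240% at 72h and did not pass the test. The 8 hepatocyte genes, with the zoning genes Cyp2e1 and Pck1 among them, summed to 56.9% and 59.1% at 0h and 49.4% and 48.0% at 72h. Cyp2e1 alone was at 345589 and 268858 CPM at 0h and 241074 and 193087 at 72h, and the sum without it was not taken. Lyz2, a lysozyme gene of macrophages, was called lower in zone 1 (2321 and 1173 at 0h, 964 and 608 at 72h; -1.16 ± 0.35, adjusted p = 0.0283). It was -0.34 without 0h section 1, and the call ended without any 1 of the 48h, 72h and 14d sections as well (adjusted p from 0.0535 to 0.376). Cldn7, a claudin of bile duct cells, was called higher in zone 1 (1.71 ± 0.55, adjusted p = 0.0403), was 3.18 without 0h section 1 and 1.12 without 0h section 2, and lost its call without any other 1 of the 48h, 72h and 14d sections (adjusted p from 0.0627 to 0.128). In kept cells with under 5% of counts from such markers, the central minus portal differences of Gstm3, Lect2 and Rgn all passed, at -4.53 (adjusted p = 0.00367), -2.70 (adjusted p = 0.014) and -2.57 (adjusted p = 0.00189). The part of other cells in the remaining calls was not tested.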

How the data were processed

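For every section used here the authors deposited raw transcript counts by gene and cell and the x, y and z position of each detected transcript; per the labels, the assay was run by Resolve Biosciences on frozen sections. Transcript decoding, cell outlines and the length of the position unit are not given in the sources used here. The members and lists were chosen with earlier results of these data known.

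Counts were summed per section over all kept cells and per zone. Both 24h sections were merged, giving 12 libraries at 7 times and 5 residual degrees of freedom. Genes reaching 10 counts in 2 or more libraries were fitted with edgeR 4.0.16 (TMM, robust quasi-likelihood F test) in 1 model of all times, with Benjamini-Hochberg adjustment over all genes tested and a threshold of 0.05. SE is the log2 change divided by the square root of F. The central minus portal test used zones 1 and 5 with the section as a block. Normalised CPM are on the TMM scale; other CPM are plain shares of counts. Both methods were tested on simulated data. Because TMM takes most of a panel as stable, total-count and cell-number scaling were alternatives, with DESeq2, other cell and gene filters, other zone definitions and each section left out.

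The numbers 1 and 2 marked slides at 0h and 72h, so slide was a block in 1 alternative; same-slide sections deviated together with r = 0.131 over 99 genes, from 2 pairs. 52 genes fell under the naming rule: the up to 6 largest non-overlapping rises and falls called over all kept cells and in zones 1, 3 and 5, the up to 5 largest zone differences each way by p, 22 fixed genes, and up to 2 more of each list. Start regions were looked up by symbol in RefSeq on GRCm38.p6, where 41 of 52 had one.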

Additional observations from a re-analysis of the deposited data

Results flagged for a closer look

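For 10 genes the change from 0h to 72h differed between the central and the portal zone by a test of the difference itself. Gstm3 (-3.81), Lect2 (-2.15) and Rgn (-1.92) rose more in zone 1, on the log2 scale as central minus portal change. Hsd17b13 (2.27), Cyp27a1 (1.35), Fads1 (1.29), Elovl2 (1.07), Epas1 (1.02) and Vtn (1.01) rose more or fell less in zone 5. So did the Wnt ligand gene Wnt2 (1.17), which falls outside the naming rule and was picked after its value was seen. The edgeR adjusted p was 0.0085 for Fads1 and Epas1, 0.00942 for Vtn and 0.0382 for Elovl2 and Wnt2 (0.0617 for Wnt2 with the slide as a block). Fads1 and Elovl2 encode enzymes that make long polyunsaturated fatty acids, Epas1 the oxygen-regulated factor HIF-2 alpha, and Vtn vitronectin. Of 20 alternatives, 16 ended the Fads1 call, 15 that of Epas1, 17 that of Vtn and 18 that of Elovl2.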

How the results depend on the processing

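Gstm3 in each comparison, Ccnd1 over all kept cells and in zones 1, 2 and 5, and Gstm2 and Rgn in zone 1 kept their direction and their calls under every alternative run and with any 1 section left out. The 0h and 72h sections alone ended the Ccnd1 call in zone 4, and ended it in zone 3 when the replicate block was added. The number of genes called moved with the scaling. Total-count scaling gave 28 higher and 1 lower over all kept cells, 9 and 0 in zone 1, 12 and 1 in zone 2, 17 and 1 in zone 3, 29 and 0 in zone 4 and 13 and 1 in zone 5. Scaling by cell number gave 40, 34, 34, 34, 33 and 22 higher in that order and 0 lower in each. Calls with a larger rise in zone 5 against zone 1 numbered 0 and 3 with total-count scaling and 0 and 8 by cell number. Scaling by cell number turned the sign of Cps1 (0.16 over all kept cells, 0.22 in zone 1, 0.17 in zone 2), Cyp27a1 (0.028), C6 in zone 1 (0.19), Epas1 (0.93, and 0.96 in zone 4), Fbp1 (0.74, and 0.84 in zone 1), Vtn (0.84, then 0.76, 0.71 and 0.97 in zones 1 to 3) and Fads1 in zone 1 (1.04). Total-count scaling turned Epas1 in zone 4 (0.72), and tiles of transcripts turned its zone difference (-0.00027). DESeq2 called 12, 12, 13, 10, 8 and 9 genes lower over all kept cells and in zones 1 to 5, 7 higher in zone 4, and 3 and 9 zone differences toward zone 5 and zone 1. TMM without Cyp2e1 and Pck1 called 6 lower in zone 3 and 1 in zone 4, with zone differences of 1 and 5. With no filter on low genes zone 3 gave 10 and 5, and with 3 zones in place of 5 the middle one gave 14 and 6. A minimum of 50 counts per cell gave 4 lower in zone 4; a minimum of 200 gave 5 lower in zone 3 and 2 higher in zone 4; cells under 5% other-cell markers gave 4 lower in zone 3. These 3 settings each gave zone differences of 1 and 5. Zones from 6 other genes (Cyp1a2, Glul and Oat as central, Gls2, Hsd17b13 and Arg1 as portal) gave 3 lower in zone 1 and 9 and 7 in zone 4. They gave 9 and 6 in zone 5 and zone differences of 0 and 7. Those 6 genes chose the zones in that setting, so it is no separate check of their own changes. Ranking on thinned cells gave 6, 4 and 5 lower in zones 3 to 5, and tiles 1 lower in zone 4. With no filter, 3 zones, thinned ranking, tiles, a trend over the zones or the 14d sections as 1 library, 0 genes rose more in zone 5. That last setting gave 2, 6 and 0 lower in zones 1, 3 and 4. Of alternatives chosen after seeing the data, cells amid their zone gave 4 lower in zone 5 and zone differences of 1 and 6, and TMM within each zone gave 3 toward zone 5. The causes were not tested.

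The slide as a replicate block gave 8 lower in zone 1, 5 in zone 3 and 5 in zone 5, and 9 and 6 in zone 4; it ended the Wnt2 zone difference. With the 0h and 72h sections alone, calls were 2 and 0 over all kept cells, 6 and 2 in zone 1, 5 lower in zone 3, 1 and 0 in zone 4 and zone differences of 0 and 1. Adding the replicate block to that fit gave 5 and 2 in zone 1, 1 and 1 in zone 3 and 4 lower in zone 4.

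With 1 section left out, calls ranged from 7 to 19 higher and 2 to 13 lower over all kept cells, 7 to 27 and 2 to 12 in zone 1, 5 to 18 and 2 to 9 in zone 2, 2 to 11 and 0 to 14 in zone 3, 3 to 8 and 0 to 6 in zone 4, and 3 to 11 and 1 to 6 in zone 5. Zone differences ranged from 0 to 17 toward zone 5 and 2 to 14 toward zone 1. Cyp1a2 in zone 2 ranged from -0.66 to 0.76, the positive value without 0h section 1. Zone differences ranged from -0.33 to 1.45 for Elovl2, -1.65 to 0.94 for G6pc, -1.32 to 0.38 for Rnf43 and -0.10 to 1.12 for Vtn, with the negative values without 0h section 2. Depth limits Lect2 in zone 1 and Hsd17b13 in zone 5 at 0h, where a section held 13 to 41 counts.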
